A study of Mus musculus with 2 samples.

Results

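Dendritic cell marker genes were examined as a group of 10 genes in RNA from spleen CD8+ regulatory T cells, sorted cells that restrain other immune cells. The 10 genes were taken by symbol: Xcr1, Clec9a, Batf3 and Irf8 for cross-presenting dendritic cells, Zbtb46, Itgax and Cd209a for conventional dendritic cells, Siglech and Tcf4 for plasmacytoid dendritic cells, and Flt3 for several types. All 10 were found among the 22609 genes that the count tables list, and each had counts in both libraries. One library was made from WT mice. The other came from Tgfbr2-/-Eomes-/- mice, labelled as lacking the TGF-beta receptor subunit Tgfbr2 and the T-box transcription factor Eomes, and is called DKO below. The mice of both genotypes were naive, that is unimmunised, and 3 months old. The labels give neither the number of mice per library, nor how or in which cells the genes were deleted, nor the surface markers of the sort. The comparison asks how transcripts of these genes differed between sorted cells of the WT and the Tgfbr2-/-Eomes-/- genotype.

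Dendritic cells take up antigen, carry it to lymphoid tissue and present it to T cells. The cross-presenting type, which in spleen carries CD8 alpha, moves antigen from dead cells onto MHC class I for CD8+ T cells and needs BATF3 and IRF8 to develop. Other conventional dendritic cells present mainly to CD4+ T cells on MHC class II, and plasmacytoid dendritic cells, which depend on TCF4 (E2-2), make type I interferon. All of them grow under FLT3 ligand. Several of these genes are not exclusive to dendritic cells: T cells can express Batf3, Irf8 and Itgax, NK cells and macrophages Itgax, and B cells Irf8.

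Both libraries were deep enough to count each of these genes, with totals over all genes of 22307065 counts in WT and 19661212 in DKO. With 1 library per genotype no test was possible. Intervals are exact 95% intervals that cover counting error only, and they compare these libraries, not the genotypes. Levels are CPM, counts scaled to library size after TMM normalization. A call of higher or lower needs a difference of 2-fold or more in CPM and an interval that does not hold a ratio of 1. Of the targeted genes, Eomes had 10292 counts in WT and 3589 in DKO and was called lower (2.61-fold, 2.52 to 2.72). Tgfbr2 had 7825 and 4882 counts and was 1.46-fold lower (1.41 to 1.51), which was not called, and neither gene was absent. Vav1 and Zap70, T cell receptor signalling genes that were not targeted, were 1.46-fold and 1.38-fold lower. They were picked after their values were seen and are among the lowest of 20 T cell receptor genes used below for an alternative scaling. The median log2 ratio of those 20 was -0.25, with 2 above 0, and none was called. The CD8 chains Cd8a (998 and 978 CPM) and Cd8b1 (1201 and 1220 CPM) were abundant in both libraries. In whole sorted samples, fewer cells of a type and less RNA per cell cannot be told apart.

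All 10 genes had a higher CPM in the DKO library, and for 9 of them the interval lay above a ratio of 1. Over the 11735 genes that reached 1 CPM in one or both libraries, 50.2% had a higher CPM in the DKO library and 35.8% an interval above 1. The 6 called higher were Siglech, Xcr1, Tcf4, Clec9a, Itgax and Zbtb46, and 0 were called lower. Of all genes compared, 11.7% were called higher and 3.67% lower. With limits of 1.5-fold and 4-fold, 9 and 2 of the 10 were called higher, beside 17.7% and 4.47% of all genes. All 10 genes passed the minimum of 1 CPM, and all 10 also passed it as a mean of both libraries. Siglech, the 1 gene below 1 CPM in the WT library, passed the first minimum through the DKO library alone. Their log2 ratios had a median of 1.17, while the median over all genes compared was 0.00.

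**Figure D1:**
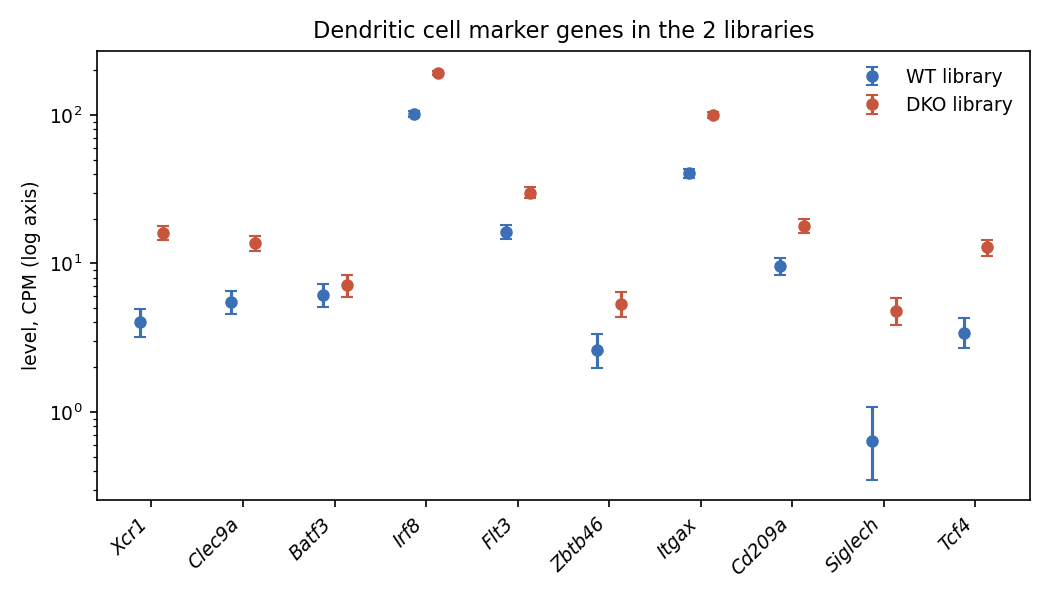
Level of each dendritic cell marker gene in CPM, on a log axis, in the WT and the DKO library, with bars for the exact 95% Poisson interval of the count. Every DKO point lies above its WT point, and only for Batf3, at 6.11 and 7.10 CPM, do the bars of the libraries overlap.

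Among genes of cross-presenting dendritic cells, the receptors were further apart between the libraries than the transcription factors. Xcr1, the receptor through which these cells follow the chemokine XCL1, was counted 88 times in WT and 321 times in DKO. Its level was 4.01 CPM (Poisson interval 3.22 to 4.94) and 16.1 CPM (14.3 to 17.9), which was 4.0-fold higher in the DKO library (3.15 to 5.13). Clec9a, a C-type lectin that recognises actin exposed by dead cells, had 120 and 273 counts. That was 5.47 CPM (4.54 to 6.54) and 13.7 CPM (12.1 to 15.4), a ratio of 2.50 (2.01 to 3.12). The intervals of the Xcr1 and Clec9a ratios did not overlap, so the larger ratio of Xcr1 was outside the counting error of both.

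The transcription factor genes of the same cells were less far apart. Irf8, which is needed for the cross-presenting type and is also active in B cells, monocytes and activated T cells, was the most abundant of the 10 genes. It had 2220 and 3819 counts, or 101 CPM (97.0 to 105.5) and 191 CPM (185 to 197), a ratio of 1.89 (1.79 to 1.99). Its whole interval lay below 2-fold, so it was just outside the calls. Batf3, the AP-1 family partner of IRF8 in these cells, had 134 and 142 counts, or 6.11 CPM (5.12 to 7.23) and 7.10 CPM (5.98 to 8.37). Its ratio of 1.16 (0.912 to 1.48) was the smallest of the 10, and its interval held equal levels. Batf3 thus stood below Xcr1 and Clec9a, with intervals that did not overlap theirs.

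Genes of conventional dendritic cells had ratios around 2. Itgax encodes CD11c, the integrin chain by which dendritic cells are commonly recognised, and is also used by NK cells, macrophages and some activated CD8+ T cells. It had 888 and 2004 counts, or 40.5 CPM (37.9 to 43.2) and 100.2 CPM (95.9 to 104.7), and was 2.48-fold higher in the DKO library (2.29 to 2.68). Zbtb46, a transcription factor of conventional dendritic cells and their committed precursors, had 57 and 107 counts. Its levels were 2.60 CPM (1.97 to 3.37) and 5.35 CPM (4.39 to 6.47), a ratio of 2.06 (1.48 to 2.89). This was the smallest ratio called, and its interval reached below 2-fold. Cd209a, a DC-SIGN related lectin of monocyte-derived and type 2 conventional dendritic cells, had 210 and 358 counts, or 9.57 CPM (8.32 to 11.0) and 17.9 CPM (16.1 to 19.9). Its ratio of 1.87 (1.57 to 2.23) was not called.

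Flt3, the receptor for FLT3 ligand on dendritic cells and their progenitors, had 359 and 600 counts. That was 16.4 CPM (14.7 to 18.1) and 30.0 CPM (27.7 to 32.5), a ratio of 1.83 (1.61 to 2.10), which was not called. It lay beside Irf8 and Cd209a, and the intervals of these 3 ratios overlapped.

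The 2 plasmacytoid genes had the first and the third highest of the 10 ratios. Siglech, a sialic acid binding receptor of plasmacytoid dendritic cells and some macrophages, was counted 14 times in WT and 95 times in DKO. Its levels were 0.638 CPM (0.349 to 1.07) and 4.75 CPM (3.84 to 5.81). The ratio was 7.45 (4.23 to 14.1), the widest interval of the 10. Tcf4, the E protein gene that sets plasmacytoid identity, had 75 and 256 counts, or 3.42 CPM (2.69 to 4.29) and 12.8 CPM (11.3 to 14.5), a ratio of 3.74 (2.88 to 4.91). Tcf4 here is the E2-2 gene, not the TCF7 family gene Tcf7l2 whose protein shares the name.

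**Figure D2:**
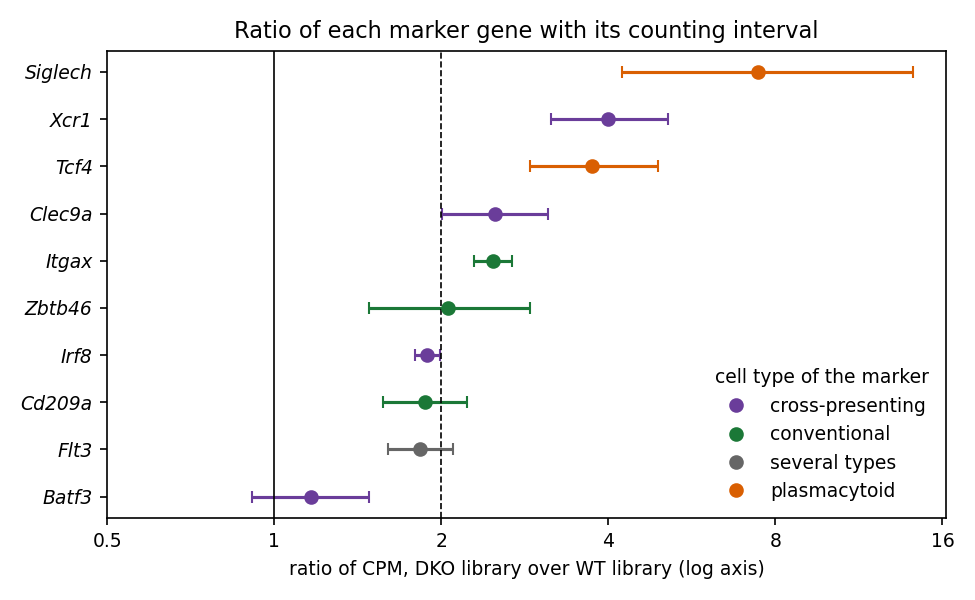
Ratio of CPM in the DKO library over the WT library for each marker gene, on a log axis, with the exact 95% counting interval and the dendritic cell type by colour. The solid line marks equal levels and the dashed line 2-fold. Siglech is highest at 7.45 and Batf3 lowest at 1.16.

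In order of ratio the genes ran Siglech, Xcr1, Tcf4, Clec9a, Itgax, Zbtb46, Irf8, Cd209a, Flt3 and Batf3. Of the 9 neighbouring pairs in this order, 8 had overlapping intervals, and the exception was Flt3 above Batf3. Overlap does not show that neighbours agreed within counting error, because intervals of ratios that differ beyond it can still overlap. The ratios of neighbouring genes were not tested against each other. Of all 45 pairs, 28 had intervals that did not overlap.

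Low-abundance genes were more often higher in the DKO library, so each ratio was also set against genes of like abundance, by whichever library's CPM was higher. The share called higher was 35.4% from 1 to 5 CPM, 18.8% from 5 to 20 CPM, 4.71% from 20 to 100 CPM and 2.17% at 100 CPM or more. Itgax and Irf8, both in the most abundant class, exceeded 98.8% and 97.6% of its other genes in ratio. Itgax was in this class only through the DKO library, at 40.5 CPM in WT and 100.2 CPM in DKO. Flt3, Xcr1, Tcf4, Zbtb46 and Siglech likewise reached their classes only through the DKO library. The places of these genes and of Itgax therefore depend in part on the ratios themselves. Flt3 exceeded 94.2% of the genes from 20 to 100 CPM. Xcr1 exceeded 95.5%, Tcf4 94.6%, Clec9a 87.9%, Zbtb46 82.2% and Cd209a 78.9% of the genes from 5 to 20 CPM. Siglech had the largest ratio of the 10 but lay above 86.0% of the genes from 1 to 5 CPM. Batf3, at 52.1%, lay near the middle of its class.

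**Figure D3:**
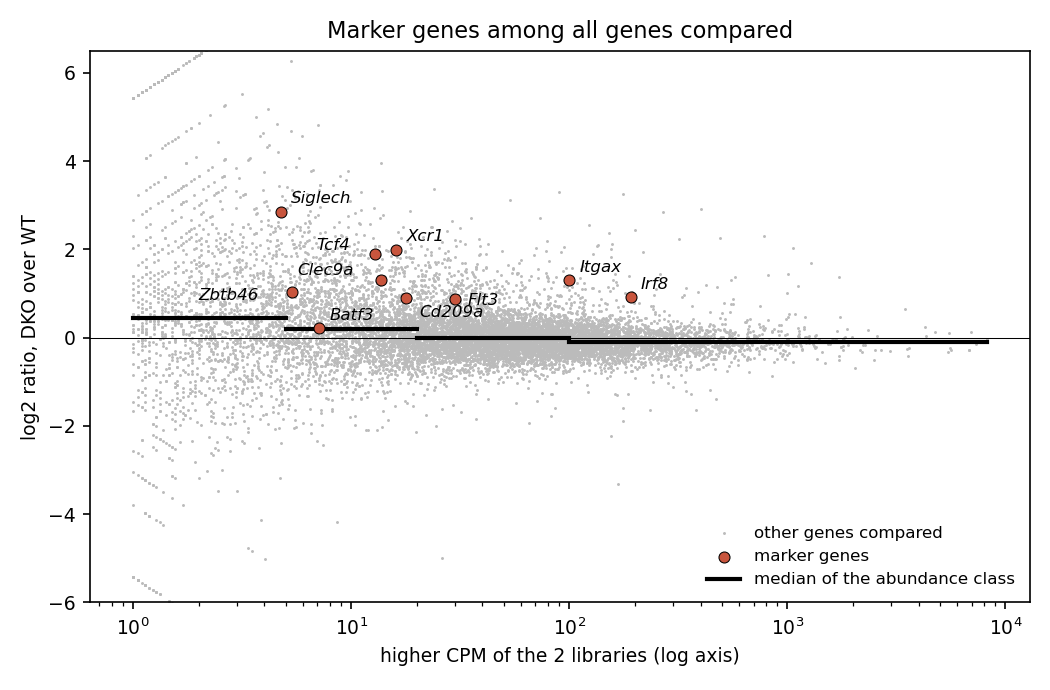
Log2 ratio of DKO over WT against the larger of a gene's CPM values (log axis) for the genes compared. The 10 marker genes are in red, other genes are grey, black bars give the median of each abundance class, and 40 genes lie outside the axis range. All 10 red points lie above 0, with Itgax and Irf8 at the abundant end.

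Levels of different genes can be set side by side only per length, here as CPM per kilobase of merged exons. Irf8 was highest in both libraries, at 14.3 in WT and 27.1 in DKO, followed by Itgax at 8.43 and 20.9 and Cd209a at 6.05 and 11.3. Batf3, Flt3, Clec9a and Xcr1 stood between 0.901 and 3.83 in WT and between 3.61 and 4.86 in DKO. Zbtb46, Siglech and Tcf4 were the 3 lowest genes in both libraries. The ranks of Irf8, Itgax and Cd209a were the same in both libraries, while Batf3 and Flt3 changed places, as did Zbtb46 and Siglech. The Tcf4 value depends most on length, since its merged exons cover 27382 bases and its longest transcript 8577. Per kilobase of the longest transcript, Tcf4 in the WT library was 0.399 in place of 0.125.

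The sequence before the start of 5 of these genes is shown because they hold the 2 largest ratios (Siglech and Xcr1) or a motif that was searched for. Windows of 250 bases before to 50 after the start came from RefSeq (GRCm38.p6), where 9 of the 10 genes were found by symbol, with 10 windows, and Tcf4 was not. Positions count from the start, which is 1, and the base before it is -1. Each line runs 5′ to 3′ on the gene's strand and begins at position -80, and capitals mark a motif. The stretches lie at chr7:55768104-55768183 (plus strand, Siglech), chr9:123862030-123862109 (minus, Xcr1), chr6:129408782-129408868 (plus, Clec9a), chr7:128129470-128129549 (plus, Itgax) and chr2:181424389-181424468 (minus, Zbtb46).
Siglech: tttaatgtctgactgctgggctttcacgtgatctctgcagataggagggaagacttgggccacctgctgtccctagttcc
Xcr1: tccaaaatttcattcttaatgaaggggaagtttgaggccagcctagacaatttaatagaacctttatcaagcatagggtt
Clec9a: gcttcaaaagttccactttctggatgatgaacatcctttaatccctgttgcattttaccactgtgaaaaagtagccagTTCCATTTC
Itgax: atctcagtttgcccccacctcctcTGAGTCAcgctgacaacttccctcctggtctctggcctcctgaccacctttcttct
Zbtb46: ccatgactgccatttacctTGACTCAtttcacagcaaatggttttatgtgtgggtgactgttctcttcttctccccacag

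The AP-1 letters TGANTCA were found before the RefSeq starts of Itgax, at positions -56 to -50, and of Zbtb46, at -61 to -55. Of all 32851 windows, 7.81% hold these letters. The IRF letters GAAANNGAA were found across the start of Clec9a, at -2 to 7, on the opposite strand, and in 8.56% of all windows. The T-box letters AGGTGTGA (in 1.28% of all windows), the Smad letters GTCTAGAC (0.213%) and the PU.1 letters GAGGAAGT (3.20%) were in 0 of the 10 windows. Both strands were searched, and Smad and AP-1 letters read alike on both. A match is only a match of letters. In the GENCODE M21 annotation the Xcr1 stretch lay outside genes. The Siglech, Itgax and Clec9a stretches ended in the first 6, 3 and 7 bases of those genes' exons. The Zbtb46 stretch lay in an intron of that gene, 35038 bases past its first annotated start, so its AP-1 letters were inside the gene.

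Position brought out 1 overlap. In GENCODE M21 exon sequence of Clec1b, a C-type lectin of platelets, overlaps exon sequence of Clec9a on the same strand, so some reads could belong to either. Clec1b had 7 and 99 counts, a ratio of 15.5 (7.26 to 39.6). The other 9 genes shared no exon with another gene in that annotation, which is not the one behind the deposited counts.

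Among the protein-coding genes compared, the 3 nearest on each side of each of the 10 genes came to 60 genes. Of these, 18 were called higher and 0 lower, beside 11.7% and 3.67% of all genes, and the median log2 ratio was 0.25. Among the 18, Clec1b, Olr1, Tatdn3, Cd209b, Cd209d and Gas2 passed the minimum of 1 CPM through the DKO library alone. Their ratios therefore had to lie above 1. The higher ones were uneven in place, with 4 of 6 beside Clec9a, 3 of 6 beside Batf3, Cd209a and Siglech each, and 0 of 6 beside Tcf4 and Zbtb46 each. Nearest here means in gene order, and distances differed widely. Clec7a lay 36.8 kb from Clec9a, but Svip and Gas2, both called higher, lay 3762 and 3773 kb from Siglech. The nearest compared gene to Tcf4 lay 291 kb away. Around Clec9a the higher genes included Clec7a, the beta-glucan receptor dectin-1, with 415 and 1377 counts (ratio 3.64), and Clec12a, with 339 and 687 (2.22). Beside Itgax, the integrin gene Itgam (CD11b) had a ratio of 2.72 (2.55 to 2.90), while Itgad had 1.31 (1.19 to 1.45). Xcr1 lies on chromosome 9 in a cluster of chemokine receptor genes, where Ccr9 had a ratio of 2.56, Ccr1 2.28 and Ccr2 0.869. Neighbouring genes of a family share sequence, and reads may be split between them.

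Other genes of cross-presenting dendritic cells mostly lay above equal levels too. Of 17 such genes, 6 were called higher and 0 lower, the median log2 ratio was 0.86, and 17 of 17 ratios lay above 1. Cd36, a scavenger receptor also found on macrophages and platelets, had 123 and 631 counts and a ratio of 5.63 (4.63 to 6.88). Gcet2 (now Gcsam) had 36 and 126 counts (3.84, 2.63 to 5.73), and the adaptor gene Clnk 54 and 166 (3.37, 2.47 to 4.67). Id2, a regulator of this lineage that effector CD8+ T and NK cells also use, had 99.7 and 249 CPM (2.49, 2.37 to 2.62).

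Genes shared by conventional dendritic cells were nearer to the 10 genes, with 9 of 16 called higher, 0 lower, and their median at 1.11. Spint1 had 39 and 123 counts (3.46, 2.40 to 5.10), Ccl22, a chemokine of mature dendritic cells, 179 and 552 (3.38, 2.85 to 4.03), and Kit 160 and 420 (2.88, 2.40 to 3.48). Ccl17 was listed at 0 in the WT library and had 23 counts in the DKO library, with a counting interval of the ratio from 6.31 upward. Cst3, the cystatin C gene and the most abundant of the list, had 308 and 564 CPM and a ratio of 1.83, as large as that of Flt3.

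Genes of type 2 conventional dendritic cells had the smallest median of these lists, 0.54, with 4 of 14 compared genes called higher and 0 lower. The 4 were Clec7a, Itgam, Cd300a (2.56, 2.34 to 2.80) and Clec12a, which macrophages, monocytes or granulocytes also express. The lectin genes Clec10a, Clec4a4 and Mgl2, chosen after their values were seen as the lectins nearest to Cd209a, were counted 51 and 84, 47 and 55, and 16 and 15 times. Their ratios were 1.81 (1.26 to 2.61), 1.28 (0.854 to 1.94) and 1.03 (0.474 to 2.22), and the intervals of the latter 2 genes held equal levels. Dtx1, the most abundant gene on the list and also active in T cells, had a ratio of 1.10.

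Other plasmacytoid genes ranged widely. Of 16 compared, 8 were called higher and 0 lower, and the median was 0.98. Low-count genes stood far apart like Siglech: Cd300c had 3 and 37 counts (ratio 13.5, 4.29 to 68.6) and Klra17 4 and 33 (9.05, 3.22 to 35.2). Upb1 had 9 and 23 counts (2.80, 1.25 to 6.88). Like Siglech, Cd300c, Klra17 and Upb1 passed the minimum of 1 CPM through the DKO library alone, so their ratios had to lie above 1. With the minimum taken as a mean of both libraries, the list median was 0.94. Zeb2, which effector T and NK cells also use, had 433 and 1091 counts (2.76, 2.47 to 3.10). Cox6a2, below the minimum and named after its value was seen, was listed at 0 in the WT library and had 15 counts in the DKO library, while Klk1, also below the minimum, had 4 and 0. Runx2, with the lowest ratio of the 16, had 1230 and 655 counts and was 1.71-fold lower (1.56 to 1.88), which was not called. The abundant genes Irf7 and Bst2 had ratios of 1.90 (1.80 to 2.01) and 1.08 (1.02 to 1.14), of which Bst2 was likewise picked after its value was seen. Klra17 belongs to the Ly49 family of near-identical copies and its value is uncertain.

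Over these 4 lists together, 27 of 63 compared genes were called higher and 0 lower, with a median log2 ratio of 0.93 and 60 ratios above 1. Among the 27, Ccl17, Cd300c, Klra17 and Upb1 passed the minimum through the DKO library alone. The lists were chosen with earlier results of these data known. They were chosen as genes of the same dendritic cell types as the 10 genes and are not independent of them. Which cells in the sorted samples the transcripts came from was not tested.

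**Figure D4:**
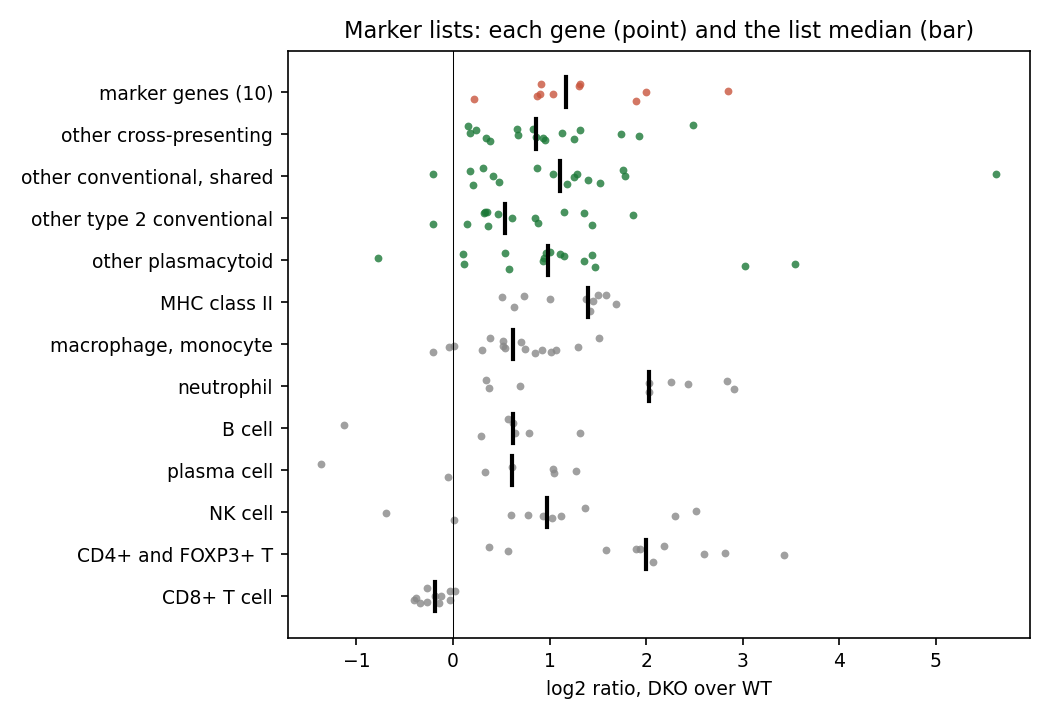
Log2 ratio of DKO over WT for each gene compared (points, spread vertically for legibility) and the median of each list (bars). The 10 marker genes are red, other dendritic cell lists green, and MHC class II genes and markers of other cell types grey. Medians run from -0.18 for CD8+ T cell genes to 2.03 for neutrophil genes, with the 10 marker genes at 1.17.

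Ligands, growth factors and cytokines linked to dendritic cells differed in both directions. Xcl1, which CD8+ T and NK cells secrete and which binds XCR1, was counted 3867 times in WT and 951 times in DKO (176 and 47.6 CPM). It was 3.71-fold lower in the DKO library, so receptor and ligand genes lay on opposite sides. Flt3l, the ligand of FLT3, had 881 and 1362 counts and a ratio of 1.70 (1.56 to 1.85), close in size to that of its receptor. The GM-CSF gene Csf2 had 37 and 13 counts and was 2.59-fold lower, while the receptor chain gene Csf2rb2 had 105 and 336 (3.51, 2.81 to 4.41). Il12b, a cytokine subunit made by activated dendritic cells and macrophages, had 1 and 37 counts, a ratio of 40.6 with an interval of 6.85 to 1646. In all, 4 of 12 compared genes were called higher, 2 lower and 6 neither, at a median of 0.61. Il12b passed the minimum through the DKO library alone and Csf2 through the WT library alone. Csf2rb2 and its near copy Csf2rb may split reads.

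Partners of the 4 transcription factors were mostly near equal. Of 18 such genes, 4 were called higher and 0 lower, and the median was 0.16. It was 0.35 when libraries were scaled by T cell receptor genes, and the mean of the list was 0.29. Batf, the family member best known from activated T cells, had 64.7 and 65.1 CPM and a ratio of 1.01 (0.932 to 1.08), and Irf4 a ratio of 1.53 (1.32 to 1.79). The E protein genes Tcf3 and Tcf12, relatives of Tcf4 that lymphocytes use widely, were 1.21-fold and 1.44-fold lower, while Tcf4 itself was 3.74-fold higher. The higher genes were Id2, Batf2 (8 and 23 counts) and the myeloid regulators Sfpi1, which encodes PU.1 (47.5 and 99.7 CPM, ratio 2.10, 1.95 to 2.26), and Cebpa (2.07, 1.80 to 2.38). Batf2 passed the minimum through the DKO library alone, so its ratio had to lie above 1. Itgb2, the beta chain that pairs with CD11c, had 1295 and 1351 CPM and a ratio of 1.04 (1.03 to 1.06), unlike the 2.48 of Itgax.

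Relatives of the 10 genes, most of them surface receptor genes, varied from gene to gene. Cd209b, a lectin of marginal zone macrophages, had 14 and 125 counts (9.80, 5.63 to 18.4), a larger ratio than that of Cd209a. Cd209e, Cd209f and Cd209g were listed at 0 in both libraries. Among sialic acid binding receptors, Siglecg had 17 and 89 counts (5.74, 3.39 to 10.3) and Siglec5 (now Siglecf), of eosinophils and some macrophages, 7 and 46 (7.21, 3.23 to 18.9). Cd22, named after its value was seen, had 1816 and 481 counts and was 3.44-fold lower. Of the 19 relatives compared, which include Zbtb16 and Zbtb7b, transcription factor genes related to Zbtb46, 8 were called higher, 2 lower and 9 neither. Of the higher ones, Cd209b, Cd209d, Siglecg, Siglec5 and Clec1b passed the minimum through the DKO library alone.

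MHC class II genes, which dendritic cells, B cells and macrophages express, were higher in the DKO library by amounts like those of Clec9a and Itgax. Of 10 such genes, 7 were called higher, 0 lower and 3 neither, at a median of 1.40. H2-Aa had 398 and 1278 CPM (3.21, 3.14 to 3.29), Ciita, the transactivator of these genes, 32.0 and 96.3 CPM (3.01, 2.76 to 3.28), and Cd74, the invariant chain, 666 and 1727 CPM (2.59, 2.54 to 2.64). Summed over the list, the level was 1941 CPM in WT and 5213 CPM in DKO, against 190 and 399 CPM for the 10 dendritic cell genes.

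Markers of other cells that share some of the 10 genes were also higher in the DKO library, and their part in the values above was not tested. Of 16 macrophage and monocyte genes, 4 were called higher and 0 lower (median 0.62, summed level 3087 and 4013 CPM), and none was at 0. Ly6c2 alone had 1834 and 1844 CPM of that sum, at a ratio of 1.01, so the sum mostly follows 1 gene. Cd68 had 22.6 and 47.5 CPM. Neutrophil genes stood further apart, with 6 of 9 higher and 0 lower (median 2.03, summed level 595 and 2632 CPM, none at 0). NK cell genes had 5 of 10 higher and 0 lower (median 0.98, summed level 791 and 1827 CPM, none at 0). CD4+ and FOXP3+ T cell genes had 8 of 10 higher and 0 lower (median 2.00, summed level 207 and 409 CPM, none at 0). Among the 8, Lrrc32 passed the minimum through the DKO library alone, so its ratio had to lie above 1. Much of that sum came from the 2 genes not called, Tnfrsf18 (98.5 and 127 CPM) and Zbtb7b (67.8 and 101 CPM).

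The B cell genes found, of interest because B cells express Irf8, were mostly low in both libraries. The immunoglobulin genes Ighm and Ighd were also chosen but were not found by symbol. Of the 9 found, 7 were compared, with 1 called higher (Ms4a1), 1 lower (Cr2) and 5 neither. The summed level of the 9 was 54.7 and 72.1 CPM. Cd79b made up most of that sum, with 36.6 and 44.6 CPM (ratio 1.22, 1.11 to 1.34). Cd79a had 75 and 118 counts, Pax5 16 and 23, and Ebf1 6 and 0. Plasma cell genes had 3 of 7 called higher and 1 lower (summed level 312 and 562 CPM). Igj made up most of that sum, with 189 and 389 CPM. The lower gene, Tnfrsf17, passed the minimum through the WT library alone, so it had to be lower in the DKO library. Genes of CD8+ T cell identity went the other way in sign, with 0 of 11 called in either direction, a median of -0.18 and a summed level of 10590 and 9256 CPM. That median turned to 0.014 when libraries were scaled by T cell receptor genes. Since 7 of the 11 genes are among those used for that scaling, the move toward equal levels was built into it.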

How the data were processed

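There were 2 RNA-seq libraries of sorted CD8+ regulatory T cells, 1 of WT and 1 of Tgfbr2-/-Eomes-/- genotype per the labels. Libraries were made from total RNA by Illumina's TruSeq total RNA protocol and read single-end, per the labels' protocols. The values the authors deposited are raw read counts per gene. HTSeq, TopHat2 2.0.8b, bcl2fastq and the mm9 build stand in the submitters' processing notes, with no roles. The annotation, filters and use of strand are not stated there, so reads of overlapping genes cannot be told apart. The 5 rows that name no gene were left out. Non-unique alignments held 66.4% of all rows' counts in WT and 64.8% in DKO, and reads outside genes 4.89% and 4.45%.

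Counts were scaled by TMM factors of edgeR 4.0.16 in R 4.3.3 (0.983 for WT, 1.02 for DKO) and given as CPM. Log2 ratios used a prior count of 0.5. Intervals of ratios are Clopper-Pearson 95% intervals of the DKO share of a gene's counts, and those of levels are exact Poisson intervals (scipy 1.17.1). Reads are not independent molecules, so both cover counting error only. A gene at 0 in 1 library was called against a floor of 3 counts, and calls were made over genes reaching 1 CPM in one or both libraries. A gene that reached this minimum in 1 library alone had to be higher in that library. Variation between animals cannot be estimated from single libraries, so there are no p-values. The scripts were tested on simulated data.

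The members and the 16 other gene lists were chosen with earlier results of these data known. Named genes were the 10 members, Tgfbr2 and Eomes, Xcl1, Flt3l, Batf, Irf4, Itgb2, Spi1, Id2 and Tcf3, and for each list its most abundant gene and the 4 furthest from equal levels by log2 ratio among genes compared. Not all of these are printed. Genes named beside the 10 as neighbours, in small counts or otherwise outside this rule were chosen by position or after their values were seen. Gene order and promoter windows (RefSeq) and exon lengths (GENCODE M21) came from GRCm38, not mm9. Older symbols were matched through the RefSeq table. Ighm and Ighd of the B cell list, Ly6g of the neutrophil list and Trac of the CD8+ T cell list were not found by symbol. Alternatives were scaling by total counts, DESeq2 1.42.0 size factors or T cell receptor genes, other minimums, fold limits of 1.5 and 4, a prior count of 5, list means and transcript length.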

Additional observations from a re-analysis of the deposited data

How the results depend on the processing

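The median log2 ratio of the 10 genes, 1.17, ranged from 1.13 with a prior count of 5 to 1.37 with scaling by T cell receptor genes. The 6 genes called higher became 2 with a limit of 4-fold and 9 with a limit of 1.5-fold or with scaling by T cell receptor genes. They numbered 5 with a minimum of 5 CPM, which Siglech does not reach. Scaling by T cell receptor genes raised the median of all genes compared by 0.20, and 1672 genes were then called higher and 330 lower, against 1370 and 431. The CD8+ T cell identity median of -0.18 turned to 0.014 under it. That move was built in, because 7 of the 11 identity genes are among those used for the scaling. The median level per length in WT, 2.16 CPM per kilobase, was 2.90 by longest transcript. The median of transcription factor partners, 0.16, was 0.35 with scaling by T cell receptor genes and 0.29 as a mean. The other lists kept the sign of their medians under every alternative run. All 16 lists together, partners and CD8+ T cell genes included, hold 211 genes outside the 10, some of them below the minimum. Of these, 86 were called higher, and 80 to 100 under the alternatives, beside 11.7% of all genes compared in the main setting. No paired analysis was possible because each genotype has 1 library. Depth limits Siglech most, with 14 counts in WT.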

Other observations

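Cd83, Fscn1 and Relb, genes of mature dendritic cells, were picked after their values were seen. Cd83 had 391 and 868 counts (ratio 2.44, 2.16 to 2.75), Fscn1, an actin bundling protein of mature dendritic cells, 759 and 1420 (2.05, 1.88 to 2.24), and Relb, an NF-kappaB subunit, 2352 and 2430 (1.13, 1.07 to 1.20). Wdfy4, which cross-presenting dendritic cells need to present antigen of dead cells, had 1279 and 2556 counts (2.19, 2.05 to 2.35). Toll-like receptor genes Tlr7 and Tlr9 of plasmacytoid dendritic and B cells had ratios of 2.22 (1.98 to 2.49) and 2.16 (1.73 to 2.71), and Tlr3 1.82 (1.37 to 2.44).

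Genes of cycling cells were higher in the DKO library in 10 of 11 cases and lower in 0, with a median log2 ratio of 1.89. Mki67, the Ki-67 gene, had 34.2 and 103 CPM, and Top2a 34.6 and 128 CPM. These genes are not specific to a cell type.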
